A study of Mus musculus with 8 samples.

Results

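The proteasome genes of mouse retina were compared between animals lacking PD-L1 and controls. Members were the protein-coding genes of the deposited count table whose symbols start with Psma to Psmg followed by a number and whose counts over the 8 libraries summed to at least 80. This gave 49 of the 25477 genes of the table. 50 symbols matched, and Psma8, with 16 counts in all, was left out. By the same rule Psmb8, Psmb9, Psmb10, Psme1 and Psme2 formed the immune group of 5 genes and the other 44 the constitutive group. All 49 had enough counts to be tested. The rule works on symbols, so the 44 also hold assembly chaperones, an inhibitor, 2 genes of binding partners (Psmc3ip and Psme3ip1) and Psme2b, which are not subunits of the particle.

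The study sequenced polyadenylated RNA from 8 retina samples, 4 with the genotype PD-L1 knockout and 4 with the genotype control, and the titles place all 8 in a setting of choroidal neovascularization (CNV), in which vessels from the choroid grow toward the retina. PD-L1, the product of Cd274, is a surface ligand that restrains immune cells bearing its receptor PD-1. The title of the study asks how PD-L1 acts on retinal microglia and vascular leakage. The sources used here do not give strain, age, the deleted part of the gene, or how neovascularization was induced. No label says that the samples were separate animals, so p-values cover only the spread among these libraries, which could be technical. Libraries of a group differed beyond counting noise in every pair, with a chi-square per gene of 20.28 to 107.8.

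The proteasome is a barrel-shaped protease that degrades proteins tagged with ubiquitin. Its core particle is a stack of outer alpha rings, which gate the entrance, and inner beta rings, which carry the catalytic sites. A regulatory particle of ATPase and non-ATPase subunits binds, unfolds and feeds in the substrate. In immune cells, and in other cells under interferon, Psmb8, Psmb9 and Psmb10 take the places of the constitutive catalytic subunits Psmb5, Psmb6 and Psmb7 in newly built particles, called immunoproteasomes. Psme1 and Psme2 encode the alpha and beta subunits of an interferon-inducible activator ring that caps the core. Immunoproteasomes are known for cutting peptides that suit presentation on MHC class I.

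The libraries held 31743404 to 36438248 counts. The targeted gene matched the labels: Cd274 had 12, 15, 9 and 11 counts in knockouts 1 to 4 and 148, 117, 153 and 165 in controls 1 to 4. Crystallin transcripts of the lens were abundant in knockout 3 and in controls 2 and 3. These 3 libraries, and control 4, which moved counts of calls the most, are treated beside the results they touch. Levels below are read counts relative to library size (CPM) after scaling between libraries. Levels of different genes are compared only in FPKM, which also divides by gene length.

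Psmb8, Psmb10 and Psme1, 3 of the 5 immune genes, were higher in the knockout retinas, and none of the 5 fell. The test was edgeR's quasi-likelihood test, with p-values adjusted over the 16861 genes tested and called under 0.05. By this rule 1.2% of all tested genes were higher in the knockout and 1.35% lower, together 2.55%. None of the 44 constitutive members passed. The median log2 fold change (knockout over control) was 0.63 over the immune group, 0.09 over the constitutive group and -0.00 over all tested genes. These are counts of whole retina RNA, so a change in the number of cells of a type and a change in RNA per cell cannot be told apart.

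Psmb8, the inducible subunit that replaces Psmb5, stood at 14.1, 8.78, 8.37 and 10.4 CPM in knockouts 1 to 4 and at 5.58, 6.54, 5.58 and 4.23 CPM in controls 1 to 4. Every knockout library lay above every control, and knockout 1 was the highest. Psmb8 rose 1.90-fold (log2 fold change 0.93, SE 0.19, adjusted p = 0.0297).

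Psmb10, which replaces Psmb7, was at 9.89, 10.98, 11.9 and 11.5 CPM in the knockouts and 6.24, 7.98, 7.36 and 7.01 CPM in the controls. The groups did not overlap, and here knockout 1 was the lowest of its group. Psmb10 rose 1.55-fold (log2 fold change 0.63, SE 0.13, adjusted p = 0.0305).

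Psmb9, which replaces Psmb6, was the scarcest of all 49 members, with 90 to 159 counts per knockout library and 26 to 66 per control. Its levels were 4.49, 2.61, 3.44 and 3.06 CPM in the knockouts and 0.815, 1.76, 2.03 and 1.30 CPM in the controls. The groups were apart, and the fold was the highest of the 5 at 2.30 (log2 fold change 1.20, SE 0.30). The gene missed the threshold (adjusted p = 0.0539), and its SE was also the largest of all members.

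Psme1, the alpha subunit of the inducible activator, was at 35.03, 35.8, 39.2 and 41.0 CPM in the knockouts and 26.8, 29.8, 25.0 and 27.1 CPM in the controls. The groups did not overlap, and Psme1 rose 1.39-fold (log2 fold change 0.47, SE 0.09, adjusted p = 0.0220). Psme2, the beta subunit of the same ring, had 24.5, 25.5, 24.3 and 24.8 CPM in the knockouts against 26.3, 30.6, 25.0 and 22.3 CPM in the controls. The knockout values lay within the control range, and the log2 difference of -0.07 (SE 0.11) had an adjusted p of 0.721.

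In FPKM the activator transcripts were near equal in the control, at 27.6 ± 1.86 for Psme1 and 26.5 ± 3.41 for Psme2 (SD, n = 4). The ratio of Psme1 to Psme2 within a library was 1.02, 0.972, 1.00 and 1.21 in controls 1 to 4 and 1.43, 1.40, 1.61 and 1.66 in knockouts 1 to 4. All 4 knockout ratios lay above all 4 control ratios. This ratio was taken after the values were seen, so no test is given. Of the 50-base stretches of Psme2 transcripts, 28.3% also occur in another gene, chiefly in Psme2b, a copy of Psme2 without introns on chromosome 11. How reads shared by such genes were counted is not given, so the levels of Psme2 and Psme2b are uncertain. Psme2b itself was at 5.21 ± 0.689 CPM in the knockout against 4.17 ± 1.44 CPM (log2 fold change 0.32, SE 0.24, adjusted p = 0.463).

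**Figure D1:**
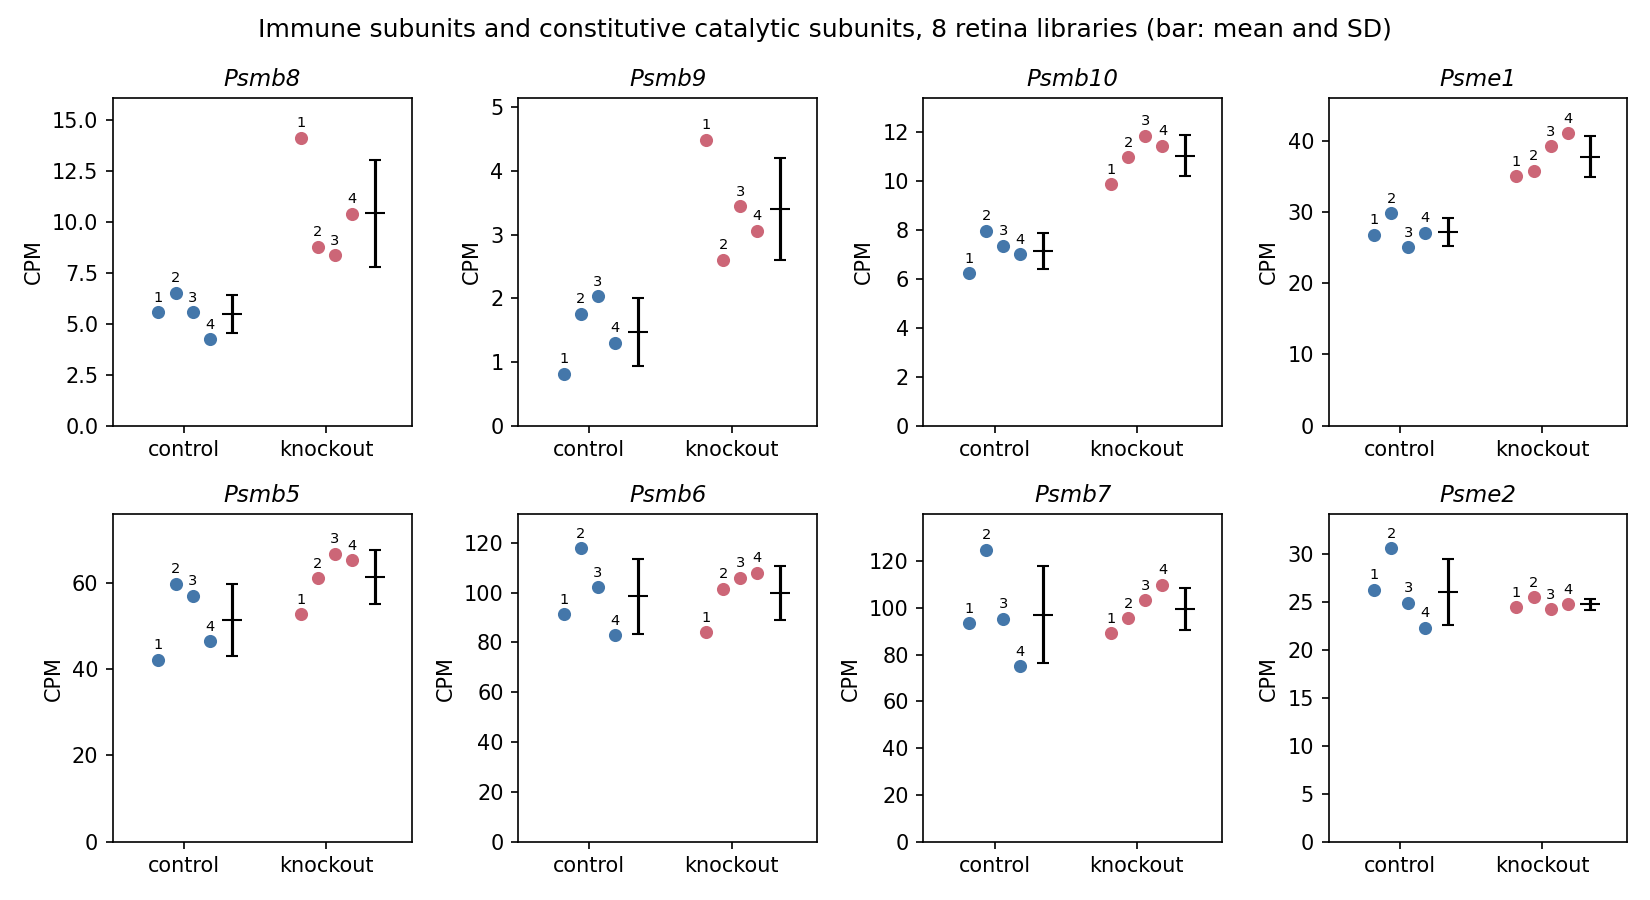
CPM of the 5 immune genes and of the constitutive catalytic subunits in each library (points, numbered by replicate), with the mean and SD of each group of 4 as a bar; axes start at 0. Psmb8, Psmb9, Psmb10 and Psme1 have no knockout point at or below a control point, while Psme2, Psmb5, Psmb6 and Psmb7 overlap.

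The immune calls depended on which libraries were kept. Psmb8 was no longer called when knockout 1, 3 or 4 or control 1 or 3 was left out, with an adjusted p of up to 0.0843. For Psme1 these were knockouts 2, 3 and 4 and controls 1 and 3 (up to 0.0925), and for Psmb10 knockouts 2, 3 and 4 and controls 1, 2 and 3 (up to 0.127). The count of immune genes called was 2 without knockout 1, 1 without knockout 2, 0 without knockout 3 or 4 or control 1 or 3, 2 without control 2, and 4 without control 4, where Psmb9 was called too. Calls over all genes moved as well, from 430 with all 8 libraries. They were 332, 204, 108 and 216 without knockouts 1 to 4 in turn. Without controls 1 to 4 they were 162, 143, 130 and 3209, the last being 18.7% of the genes tested. The log2 fold changes of the immune genes moved less: they stayed between 0.74 and 1.03 for Psmb8, 0.57 and 0.69 for Psmb10, 1.00 and 1.39 for Psmb9, and 0.43 and 0.53 for Psme1. With the 3 lens-rich libraries left out, 3 knockouts against 2 controls, none of the 5 was called, and 15 genes were called in all. The log2 fold changes were then 1.19 for Psmb8, 1.68 for Psmb9, 0.71 for Psmb10 and 0.48 for Psme1. On log2(FPKM + 1) Psmb8 missed the threshold (limma, adjusted p = 0.0516). Psmb9 passed it in DESeq2 (adjusted p = 0.00324) and limma-voom (adjusted p = 0.0485).

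Psmb9 (chromosome 17, 34182030 to 34187330) and Psmb8 (34198195 to 34201454) lie in the MHC region, in a row with the transporter genes Tap1 and Tap2. Only 225 bases separate the starts of Psmb9 and Tap1, which run in opposite directions. Psme1 (chromosome 14, 55578494 to 55581527) and Psme2 (55587440 to 55591101) are neighbours 5912 bases apart. Psmb10 lies on chromosome 8 (105935728 to 105938392). Promoter windows of RefSeq (GRCm38.p6, 250 bases before to 50 after the start) matched 42 of the 49 members by gene identifier, 5 immune and 37 constitutive. Printed here, 5′ to 3′ and up to the start, are those of the MHC-linked subunits, of the activator neighbours that differed, and of Psmb5. Capitals mark a match to 1 of 3 motifs searched on both strands.
Psmb8, chr17:34197945-34198194, strand +: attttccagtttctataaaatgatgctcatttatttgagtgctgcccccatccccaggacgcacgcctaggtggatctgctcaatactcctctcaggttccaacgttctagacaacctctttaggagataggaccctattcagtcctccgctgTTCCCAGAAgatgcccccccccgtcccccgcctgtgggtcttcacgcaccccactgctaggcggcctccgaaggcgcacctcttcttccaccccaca
Psmb9, chr17:34187331-34187555, strand - (the whole gap to Tap1): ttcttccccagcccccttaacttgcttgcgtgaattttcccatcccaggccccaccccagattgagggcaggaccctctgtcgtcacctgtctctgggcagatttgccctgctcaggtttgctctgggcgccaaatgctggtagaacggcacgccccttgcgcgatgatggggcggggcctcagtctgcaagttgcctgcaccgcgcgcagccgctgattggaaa
Psme1, chr14:55578244-55578493, strand +: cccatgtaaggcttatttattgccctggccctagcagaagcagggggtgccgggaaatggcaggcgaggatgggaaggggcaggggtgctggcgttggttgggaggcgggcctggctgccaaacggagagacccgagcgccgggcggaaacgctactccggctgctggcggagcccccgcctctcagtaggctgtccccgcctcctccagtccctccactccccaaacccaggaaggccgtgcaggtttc
Psme2, chr14:55591102-55591351, strand -: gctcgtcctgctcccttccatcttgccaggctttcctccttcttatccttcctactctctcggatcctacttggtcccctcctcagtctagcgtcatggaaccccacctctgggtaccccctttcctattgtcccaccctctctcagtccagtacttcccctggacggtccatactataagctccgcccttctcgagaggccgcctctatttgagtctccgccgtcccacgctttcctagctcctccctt
Psmb5, chr14:54617996-54618245, strand -: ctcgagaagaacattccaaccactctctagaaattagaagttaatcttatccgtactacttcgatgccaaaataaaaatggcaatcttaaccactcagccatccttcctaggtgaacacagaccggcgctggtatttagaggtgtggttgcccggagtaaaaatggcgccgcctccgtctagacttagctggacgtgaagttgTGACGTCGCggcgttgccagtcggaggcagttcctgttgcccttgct

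The motifs were short cores: GAAANNGAA, read by interferon regulatory factors (ISRE), TTCNNNGAA, an interferon gamma response element (GAS), and TGACNNNGC, read by Nrf factors, which drive constitutive proteasome genes (ARE). The ISRE letters were in 9.76% of 27025 genes with a window, in 1 of the 5 immune genes and in 6 of the 37 constitutive genes. The immune match was in Psme1, as TTCGCTTTC at 10 to 18 bases after the start, beyond the printed stretch. The GAS letters were in 9.55% of all genes, 1 of 5 immune genes (Psmb8, TTCCCAGAA, 97 to 89 bases before the start) and 2 of 37 constitutive genes. The ARE letters were in 14.0% of all genes, 0 of 5 immune genes and 6 of 37 constitutive genes, among them Psmb5 (TGACGTCGC, 47 to 39 bases before the start). Psmb9, Psmb10 and Psme2 held none of the 3. A match is a description of these letters, and its absence says only that they are not in the window.

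Transcripts of the inducible catalytic subunits stayed the smaller part of each catalytic pair in whole retina RNA. In the control the constitutive partners were at 58.4 ± 9.11 FPKM (Psmb5), 87.0 ± 12.7 (Psmb6) and 91.1 ± 18.7 (Psmb7), and the inducible ones at 4.45 ± 0.751 (Psmb8), 1.32 ± 0.471 (Psmb9) and 5.58 ± 0.517 (Psmb10; SD, n = 4). Among the 49 members by control FPKM, Psmb10 ranked 45, Psmb8 ranked 46 and Psmb9 ranked 49. The place of each inducible subunit in its pair was tested on the log2 ratio of FPKM within a library, which does not depend on how libraries are scaled. The test was an exact two-sided permutation test over the 70 arrangements of 4 and 4 libraries, adjusted over 3 pairs, and its smallest possible p was 0.0286.

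Psmb9 made up 5.12, 2.53, 3.19 and 2.79% of the summed FPKM of Psmb9 and Psmb6 in knockouts 1 to 4, and 0.894, 1.49, 1.97 and 1.57% in controls 1 to 4. The ratio was higher by 1.23 on the log2 scale, with no overlap (exact permutation p = 0.0286, adjusted p = 0.0429). Psmb10 made up 8.45, 8.73, 8.74 and 7.99% of its sum with Psmb7 in the knockouts and 5.27, 5.06, 6.04 and 7.23% in the controls. That ratio was higher by 0.58 (exact permutation p = 0.0286, adjusted p = 0.0429).

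Psmb8 made up 16.0, 9.30, 8.21 and 10.2% of its sum with Psmb5 in the knockouts and 8.63, 7.23, 6.51 and 6.10% in the controls. Knockout 3 lay below control 1, and the ratio, higher by 0.65 on the log2 scale, did not pass (exact permutation p = 0.0571, adjusted p = 0.0571). Reads of Psmb5 carry a limit of their own, since 54.1% of the 50-base stretches of its transcripts also occur in other genes, chiefly Gm3375. For Psmb8 that share was 11.9%, for Psmb9 4.19% and for Psme1 5.47%, and Psmb10 shared none. Without 1 library the smallest possible p was 0.0571, so no pair could be called. The differences then ran from 0.42 to 0.78 for Psmb8 to Psmb5, 1.00 to 1.39 for Psmb9 to Psmb6 and 0.50 to 0.69 for Psmb10 to Psmb7.

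**Figure D2:**
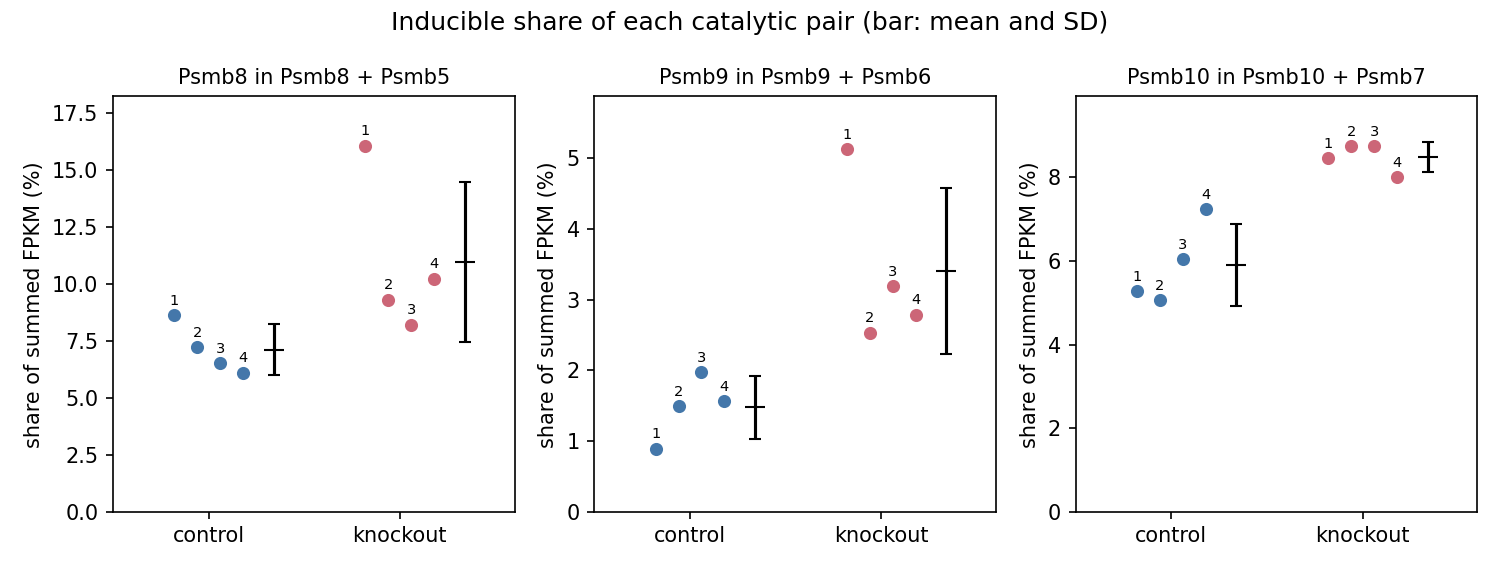
Share of the inducible subunit in the summed FPKM of each catalytic pair, in percent from 0, for each library (points, numbered by replicate) with the mean and SD of each group of 4. The 4 knockouts lie above the 4 controls for Psmb9 and Psmb10, while for Psmb8 knockout 3 (8.21%) lies below control 1 (8.63%).

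Of the 44 constitutive members, 32 had a positive and 12 a negative log2 fold change, all between -0.27 and 0.37, and no edgeR call was made. Of all 16861 tested genes, 8400 had a positive one. The signs were not tested as a set. At an unadjusted p under 0.05 there were 12 (10 higher, 2 lower), where 21.3% of all tested genes passed. All 4 knockouts lay above all 4 controls for 5 of the 44 and below them for 1, against 5.19% and 5.78% of all tested genes. For the immune group the first count was 4 of 5. The SE of a constitutive member was 0.07 to 0.24, with a median of 0.10.

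The catalytic subunits Psmb5, Psmb6 and Psmb7 overlapped between the groups. Psmb5, the chymotrypsin-like site, was at 52.7, 61.0, 66.6 and 65.2 CPM in knockouts 1 to 4 and 42.1, 59.7, 57.0 and 46.4 CPM in controls 1 to 4 (log2 fold change 0.26, SE 0.12, adjusted p = 0.237). Psmb6, the caspase-like site, was at 84.2, 101.5, 105.9 and 108.0 CPM against 91.4, 117.7, 102.1 and 82.9 CPM (0.02, SE 0.11, adjusted p = 0.940). Psmb7, the trypsin-like site, was at 89.2, 95.5, 103.2 and 109.8 CPM against 93.3, 124.7, 95.3 and 74.9 CPM (0.04, SE 0.13, adjusted p = 0.906). For Psmb6 and Psmb7 control 2 was the highest and control 4 the lowest of all controls. The sign for Psmb6 turned with protein-coding genes only (-0.0031) and for both genes without some single libraries.

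The structural beta subunits Psmb1, Psmb2, Psmb3 and Psmb4 spanned -0.01 to 0.25 on the log2 scale. Psmb2 was the highest of them, at 48.8 ± 2.91 CPM against 41.0 ± 3.55 CPM, with no overlap (adjusted p = 0.140). The 7 alpha subunits, which form the outer rings, did not move one way. Psma4 (0.22), Psma1 (0.16), Psma6 (0.10) and Psma5 (0.08) had positive log2 fold changes, and Psma7 (-0.12), Psma2 (-0.16) and Psma3 (-0.19) negative ones. All 7 overlapped between the groups. Psma2 was the most abundant member in the control, at 114.6 ± 23.8 FPKM. In the knockout it was at 103.9 ± 11.02 FPKM, below Psmb4 at 117.3 ± 10.9 FPKM (SD, n = 4).

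None of the 17 subunits of the regulatory particle was called. The log2 fold change was positive for 15 of them, against 8400 of all 16861 tested genes, which was not tested. Their median was 0.12, and the smallest adjusted p was 0.0671. Psmd3, a scaffold subunit, had the highest log2 fold change of the constitutive group. It was at 80.1, 82.6, 97.6 and 76.8 CPM in knockouts 1 to 4 and 59.8, 64.6, 61.9 and 74.6 CPM in controls 1 to 4 (log2 fold change 0.37, SE 0.10, adjusted p = 0.0671). The knockouts lay above the controls, and control 4 lay close under the lowest knockout.

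Psmd2, a large scaffold subunit that binds ubiquitin-like proteins, had the same arrangement, at 148.1, 143.4, 160.9 and 139.2 CPM against 117.4, 110.4, 103.9 and 136.6 CPM (0.34, SE 0.10, adjusted p = 0.0786). Psmd1, the other large scaffold subunit, was at 128.4 ± 9.60 CPM against 105.6 ± 21.4 CPM (0.28, adjusted p = 0.213), with control 4 above 3 knockouts. Psmd14, the deubiquitinase that strips ubiquitin from the substrate, was at 59.2 ± 2.81 CPM against 63.1 ± 3.56 CPM (-0.09, adjusted p = 0.522). The ubiquitin receptor Psmd4 had a log2 fold change of 0.18 (adjusted p = 0.216). These genes, and those of the next 2 paragraphs except Psmc6, were chosen after their values were seen.

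Among the 6 ATPases, which unfold the substrate, Psmc2 (0.23), Psmc4 (0.18), Psmc3 (0.13), Psmc5 (0.09) and Psmc1 (0.07) had positive log2 fold changes. Psmc6 had the lowest of the constitutive group, with 123.2, 133.2, 143.6 and 156.6 CPM in the knockouts and 159.4, 202.9, 170.6 and 139.9 CPM in the controls (log2 fold change -0.27, SE 0.12, adjusted p = 0.200). Its groups overlapped, since control 4 lay below knockouts 3 and 4.

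Psme4, an activator of another family that caps the core without ATP, was the only member with every knockout below every control. It was at 91.4, 85.7, 90.1 and 92.1 CPM in the knockouts and 105.0, 109.2, 101.6 and 111.1 CPM in the controls (log2 fold change -0.25, SE 0.07, adjusted p = 0.0834). Psme3, the nuclear relative of Psme1 and Psme2, was at 103.2 ± 4.70 CPM against 95.1 ± 5.16 CPM (0.12, adjusted p = 0.388). Psmf1, an inhibitor of the core, was at 38.5 ± 4.28 CPM against 32.3 ± 3.20 CPM (0.25, adjusted p = 0.197). The 4 core assembly chaperones Psmg1 to Psmg4 lay between -0.10 and 0.02, and the 3 regulatory particle chaperones Psmd5, Psmd9 and Psmd10 between -0.04 and 0.14. The binding partners had 0.21 (Psme3ip1) and 0.06 (Psmc3ip).

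**Figure D3:**
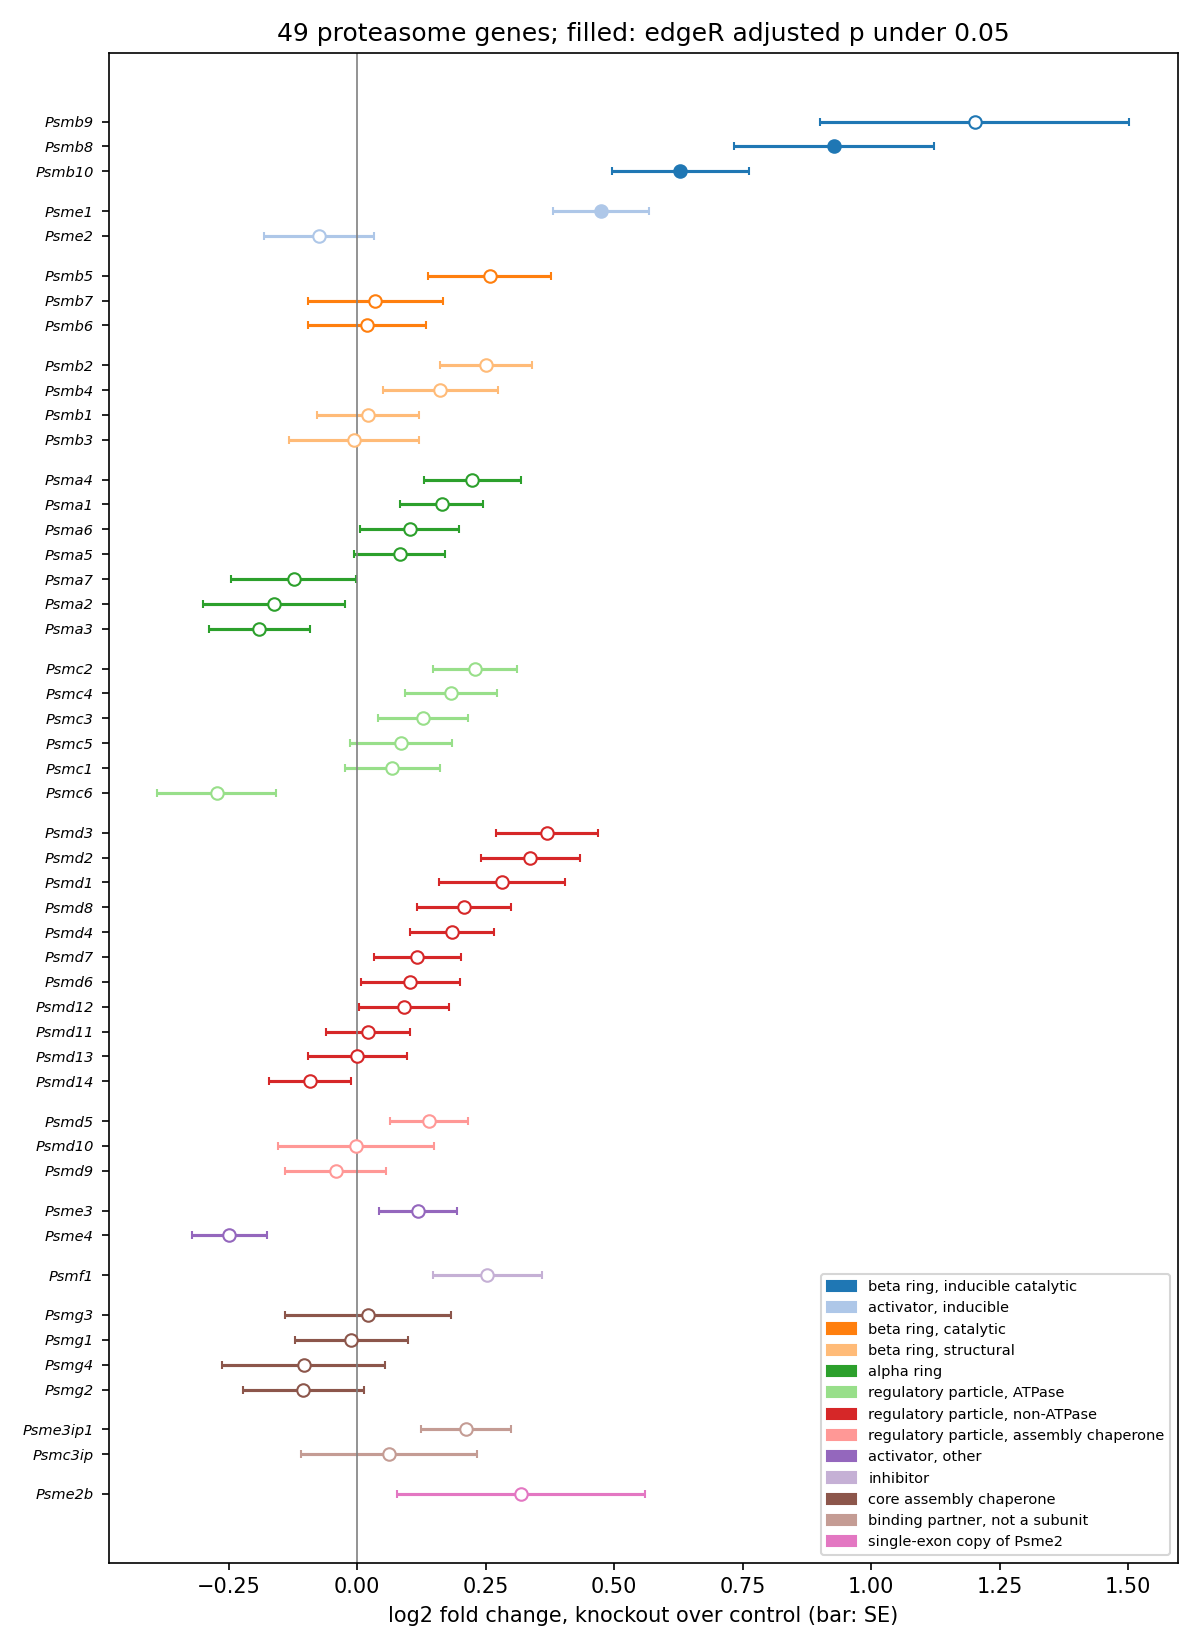
Log2 fold change (knockout over control) with its SE for all 49 members, grouped and coloured by role; filled points passed edgeR at an adjusted p under 0.05. The filled points are Psmb8 (0.93), Psmb10 (0.63) and Psme1 (0.47), and the constitutive members lie between -0.27 and 0.37.

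Single libraries and the tool set whether a constitutive member was called. Under DESeq2, which called 7.82% of its 16579 genes, 3 passed: Psmd3 (log2 fold change 0.37, adjusted p = 0.0251), Psmd2 (0.33, 0.0317) and Psme4 (-0.25, 0.0317). Limma-voom called none of the 44, and 2.85% of all genes. Without control 4, where 18.7% of 17146 genes were called, 7 passed in edgeR: Psmb2, Psmc2, Psmd1, Psmd2 and Psmd3 higher, and Psmc6 and Psme4 lower. With any other single library left out, none passed.

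Most constitutive genes of the core rings shifted together from control to control, apart from genotype. Control 2 was the highest control for 6 of 7 alpha and 7 of 7 constitutive beta subunits, and control 4 the lowest for 5 of 7 in each ring. The median log2 ratio to the mean of 8 libraries was 0.17 (alpha) and 0.25 (beta) in control 2, and -0.25 and -0.28 in control 4. The 11 non-ATPase subunits shared this order only in part. Control 2 was their highest control for 7 and control 4 for 4, and control 4 was the lowest for 0. Their medians were 0.06 in control 2 and -0.00 in control 4, against -0.17 in control 1 and -0.20 in control 3. Of the 6 ATPases, control 2 was the highest control for 4 and control 4 the lowest for 2. Rps27a, a ribosomal gene that also encodes ubiquitin, ranged over the same controls from 137.9 CPM in control 4 to 537.9 CPM in control 2. In the knockouts the alpha and beta medians spanned -0.14 to 0.12. The inducible catalytic genes were at -0.91 to -0.28 in the controls and 0.14 to 0.83 in the knockouts.

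**Figure D4:**
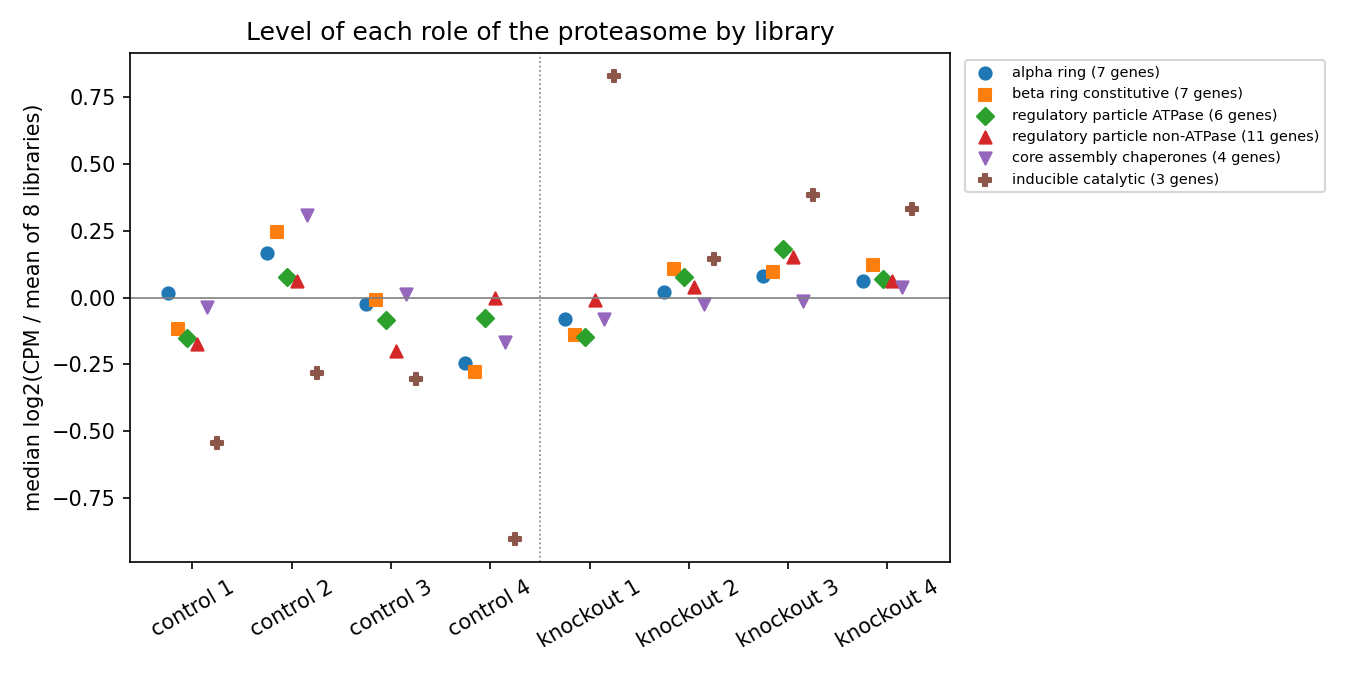
Median over the genes of a role of log2(CPM divided by the mean of 8 libraries), one symbol per role and library, controls left and knockouts right of the dotted line. The inducible catalytic genes are at -0.28 or below in every control and at 0.14 or above in every knockout, while the core rings are highest in control 2 and lowest in control 4.

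Other genes of the pathway, from lists drawn up without regard to how they moved but with earlier results known, were read from the same edgeR fit. Of 11 proteasome genes with other names, such as the assembly factor Pomp and the bound deubiquitinases Usp14 and Uchl5, none passed in edgeR (1 at an unadjusted p under 0.05, 1 in DESeq2, 0 in limma-voom). Pomp, the maturation factor of the core, was at 76.7 ± 6.09 CPM against 83.3 ± 20.02 CPM (-0.12, adjusted p = 0.664). The lowest p values belonged to Ecpas, a scaffold that binds the regulatory particle (-0.27, adjusted p = 0.0928), and Uchl5 (adjusted p = 0.344). Of 10 genes that control proteasome transcription none passed in edgeR (2 at an unadjusted p under 0.05), DESeq2 or limma-voom. Over all genes 21.3% passed at the unadjusted p, 7.82% in DESeq2 and 2.85% in limma-voom. The factor Nfe2l1, which restores proteasome genes when the protease is impaired, had 0.13 (adjusted p = 0.477), Nfe2l2 had 0.31 (adjusted p = 0.104) and Vcp 0.37 (adjusted p = 0.178).

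Of 13 genes of ubiquitin, its activating enzymes and shuttles, 1 rose, where 1.2% of all tested genes were higher. Uba7, which activates the ubiquitin-like interferon-induced modifier Isg15, was at 8.17, 4.49, 6.08 and 5.23 CPM in the knockouts and 3.04, 2.04, 3.76 and 3.29 CPM in the controls (log2 fold change 0.98, SE 0.24, adjusted p = 0.0489). The groups did not overlap, and the call was kept in 1 of 8 fits without a library and in 5 of 12 other settings.

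Downstream of the proteasome, 6 of 17 genes of MHC class I and its peptide supply rose and none fell, where 1.2% of all tested genes were higher. Among the 6 were the class I heavy chains H2-K1 (1.21, adjusted p = 0.000901), H2-D1 (1.011, 0.00258) and H2-T23 (1.39, 0.00247), and B2m, their light chain (1.02, 0.00157). Each of these 4 was called in all 8 fits that left out a single library, and none without the 3 lens-rich libraries (adjusted p = 0.0535 for H2-K1, 0.130 for H2-D1, 0.116 for H2-T23 and 0.0996 for B2m). Tap2, which with Tap1 pumps peptides into the endoplasmic reticulum and lies 3024 bases from Psmb8, rose from 6.99 ± 0.838 to 11.4 ± 0.998 CPM (0.70, adjusted p = 0.0217). Apart from class I chains, Tap2 was the only gene of the 17 called. Tap1, across the 225-base gap from Psmb9, was at 16.3, 6.95, 9.18 and 7.58 CPM in the knockouts and 4.89, 3.71, 5.48 and 7.19 CPM in the controls. Those groups overlapped at knockout 2 and control 4 (0.91, SE 0.27, adjusted p = 0.0890).

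Of 16 genes of the interferon signal tested, 2 rose and none fell, where 1.2% of all tested genes were higher. Irf9, a transcription factor of that signal, was among the 2, at 45.3 ± 10.4 CPM against 30.8 ± 0.869 CPM (0.55, SE 0.13, adjusted p = 0.0494). Its call was kept in 2 of 8 fits without a library and in 4 of 12 other settings. Without the lens-rich libraries Irf9 was not called (edgeR, adjusted p = 0.531). Irf1, a known activator of Psmb9 and Tap1, was at 10.9 ± 1.77 CPM against 6.86 ± 1.54 CPM without overlap (0.67, adjusted p = 0.0671).

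Some markers of microglia were also higher in the knockout. Of 11 markers, 6 rose and none fell, where 1.2% of all tested genes were higher. The summed level of the 11 was 166.3 to 215.3 CPM in the knockouts and 93.9 to 141.5 CPM in the controls. C1qa rose by 1.20 on the log2 scale (adjusted p = 0.00349), Csf1r by 1.03 (0.00478), C1qb by 0.94 (0.00808) and C1qc by 1.08 (0.0230), while P2ry12 had 0.03 (adjusted p = 0.954). With a single library left out, the first 3 were called in 8 of 8 fits and C1qc in 4, and without the lens-rich libraries none of the 4 was (adjusted p from 0.142 to 0.520). Lymphocyte markers were near 0: 10 were in the table, none had enough counts to test, 7 were at 0 in at least 1 library, and their sum was 0.6004 to 1.07 CPM in the knockouts and 0.690 to 0.769 CPM in the controls. Of the blood genes, 4 of 4 tested fell, where 1.35% of all tested genes were lower (summed level of the 5 listed 1.68 to 4.03 CPM against 10.1 to 14.5 CPM). With a single library left out, Hbb-bs was called in 8 of 8 fits, Hba-a2 and Hbb-bt in 2 and Hba-a1 in 1. Without the lens-rich libraries Hbb-bs was called (adjusted p = 0.0341), while Hba-a2 (0.280), Hbb-bt (0.520) and Hba-a1 (0.519) were not. None of 6 markers of retinal neurons, 6 of endothelium or 15 of lens passed in edgeR or limma-voom. At an unadjusted p under 0.05 there were 2, 2 and 0, where 21.3% of all tested genes passed. In DESeq2 there were 2, 1 and 0, where 7.82% of all genes passed. Cldn5 and Kdr of endothelium, Sag of neurons and Cryge and Crygf of lens were among those with the smallest p. The lens sum ran from 4.04 to 2677 CPM in the knockouts and from 21.5 to 6464 CPM in the controls. The part of these cell types in the difference of the immune subunits was not tested.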

How the data were processed

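Per the labels' protocols, RNA was extracted with TRIzol, and a VAHTS Universal V6 kit served for polyadenylated RNA libraries. The build was mm10 and the tools include HTSeq, HISAT2 and fastp, per the submitters' processing notes. The sources used here do not give versions, annotation, strand setting or the treatment of reads shared by genes. The deposited count table holds the authors' whole-number read counts per gene, not normalized. The deposited FPKM table holds the authors' counts divided by library total and gene length. Libraries were grouped by title and genotype, and no column was unassigned.

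The counts of all 25477 genes were fitted in edgeR 4.0.16 (R 4.3.3): TMM scaling, filterByExpr (minimum count 10, minimum total 15; 16861 genes kept), glmQLFit and glmQLFTest for knockout against control with no covariate, and two-sided p-values adjusted by Benjamini and Hochberg over all tested genes (threshold 0.05). The SE is the absolute log2 fold change over the root of the F statistic. CPM use the TMM-scaled library sizes, and 1 count is 0.0274 to 0.0315 CPM before that scaling, which limits low genes. Spreads cover no PCR duplicates. The fit was tested on simulated data. Ratios within a library were taken from FPKM and tested by exact permutation (scipy 1.17.1).

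Given with every library's value are the immune genes, their catalytic counterparts, any other member called, and the constitutive members with the highest and lowest log2 fold change. From each of 11 lists (124 of 127 entries in the table) up to 4 called genes with the smallest p are named, or the 2 with the smallest p where none passed. Other genes were chosen after their values were seen. A few listed genes are not reported here. The members and lists were chosen with earlier results of these data known. Alternatives were RLE, upper quartile and no scaling, no filter or 1 CPM in 4 libraries, robust dispersions, protein-coding genes only, DESeq2 1.42.0, limma-voom (limma 3.58.1), limma on log2(FPKM + 1) and log2(FPKM + 0.1), a replicate block, each library left out, and the 3 libraries with over 100 CPM of lens transcripts left out. Promoter windows and positions are from RefSeq (GRCm38.p6), and 50-base stretches from GENCODE M21 transcripts of 48 members.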

Additional observations from a re-analysis of the deposited data

Results flagged for a closer look

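In 3 of 104 groups of 4 libraries tested (each member in each group, and the ratios), 1 library stood far from the other 3, where chance gives about 1 in 20. Psmc2, an ATPase of the regulatory particle, was at 89.9 CPM in knockout 3 and at 79.6 to 80.4 CPM in the other knockouts. Psmd1, a scaffold subunit, was at 142.7 CPM in knockout 3 and at 122.7 to 125.3 CPM in the others. Psme3, a nuclear activator subunit, was at 102.8 CPM in control 4 and at 92.1 to 93.0 CPM in the other controls. Against 430 called genes, 108 were called without knockout 3 and 3209 without control 4. Such a move is not particular to them, since removal of any library except knockout 1 moved this count by more than 1.5-fold.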

How the results depend on the processing

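Counts of called genes depended on the libraries more than their log2 fold changes did. Against 430 of all genes, 690 were called with no filter on low counts, 1296 by DESeq2, 228 with limma on log2(FPKM + 1), 108 to 3209 with 1 library left out, and 15 without the 3 lens-rich libraries. Immune genes called were 0 without the lens-rich libraries and 0 to 4 with 1 library left out, against 3, and constitutive members 3 by DESeq2 and 0 to 7 with 1 library left out, against 0. Psmb9 passed in 5 of 12 settings that kept all libraries. Psme2 turned from -0.07 to 0.0419 without the lens-rich libraries (-0.14 to 0.0202 with 1 library left out), and Psmb6 from 0.02 to -0.0031 with protein-coding genes only (-0.0536 to 0.12 with 1 left out). With 1 library left out, Psmb7 ran from -0.0698 to 0.19, Cryge from -7.29 to 0.68 and Crygf from -7.72 to 0.59. The cause was not tested. Same-numbered libraries deviated together with r = 0.213, -0.041, 0.121 and 0.006, only 2 of 4 over 0.1, so the numbers were not taken as pairs. With the number as a replicate block, 228 genes and 0 immune genes were called. Each number holds 1 library of each group, so the block cannot change the mean differences of the 3 ratios. Of called genes 47.2% were higher in the knockout, but 61.2% when library totals alone set the scale. None of the 3 ratios moved beyond the spread between replicates with libraries left out, and scaling between libraries cannot change them. At this depth Psmb9, with 26 counts in its lowest library, is the least certain member.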

Other observations

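The immune genes did not share an order over the knockout libraries. Knockout 1 was the highest knockout for Psmb8 (14.1 CPM) and Psmb9 (4.49 CPM), as it was for Tap1 (16.3 CPM), Nlrc5 (10.9 CPM), the factor that drives class I genes, and Irf7 (57.4 CPM), an interferon-induced factor. It was the lowest knockout for Psmb10 (9.89 CPM) and Psme1 (35.03 CPM). Microglial Csf1r was at 22.8, 21.9, 27.3 and 26.0 CPM in knockouts 1 to 4 and so did not single out knockout 1. These genes were chosen after their values were seen, and the order of 4 libraries was not tested.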
